A study of Homo sapiens with 22 samples.

Results

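Trametinib, an oral inhibitor of the kinases MEK1 and MEK2, was compared with Vehicle in tumours grown as xenografts from H2110, a cell line of human lung adenocarcinoma. The comparison took the 4 trametinib tumours (0.3 mg/kg, replicates 1 to 4) and the 6 Vehicle tumours (replicates 1, 2, 3, 5, 6 and 7), 10 of the 22 tumours of the series, by their labels. The 4 cobimetinib tumours (3 mg/kg) served for one further contrast. Every tumour had reached about 300 mm³ before 3 days of oral dosing, and the genotype label of all of them was WT. By its title the study asked whether RIT1, a GTPase related to RAS, can be targeted in lung adenocarcinoma. H2110 is 1 cell line, so the tumours share their source. Nothing in the labels states that tumours came from separate animals, and the p-values thus reflect only the spread among these samples. Neither the host species nor how host reads were treated is given in the sources used here.

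RNA was counted for 58735 genes, and 17652 passed the filter on low counts. Total counts were 7761987 to 13133140 in the trametinib tumours and 11160546 to 17265754 in the Vehicle tumours. There were 2 libraries that stood apart from the other 8, Trametinib 4 and Vehicle 1. In Trametinib 4, genes of ribosomal proteins held 25.7% of the counts, against 4.18% to 6.98% in Trametinib 1 to 3 and 3.58% to 7.28% under Vehicle. Mitochondrially encoded genes held 1.28% in Trametinib 4 and 3.53% in Vehicle 1, against 6.04% to 10.2% in the other 8. Of the tested genes 2695 had no count in Trametinib 4, against 31 to 81 in Trametinib 1 to 3 and 237 in Vehicle 1. Correlated with every other tumour, Trametinib 4 had a median coefficient of 0.751, against 0.933 in Vehicle 1 and 0.957 to 0.974 in the other 8. Rank correlations between GC content and deviation from the mean of all tumours were −0.484, −0.413, 0.054 and −0.102 in Trametinib 1 to 4, −0.538 in Vehicle 1 and 0.307 to 0.426 in the other Vehicle tumours. So GC content moved with the groups. Its part in any one result below was not tested beyond GC-corrected fits, whose values stand beside some results only. Each comparison was therefore made with all tumours and again without Trametinib 4 and Vehicle 1, called the reduced set (3 trametinib and 5 Vehicle tumours). Across genes the log2 fold change had a rank correlation with GC content of −0.332 with all tumours and −0.582 in the reduced set. The reduced set is thus not freer of this trend.

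**Figure D1:**
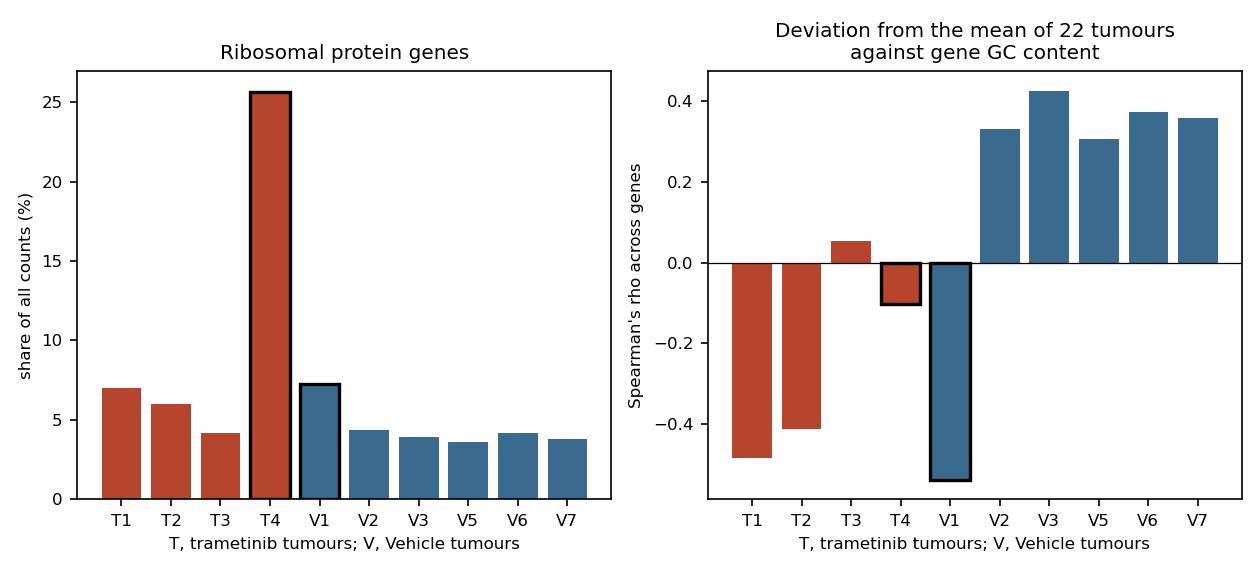
Share of counts from ribosomal protein genes (percent) and rank correlation of each tumour's deviations with the GC content of genes, for the 4 trametinib and 6 Vehicle tumours, with Trametinib 4 and Vehicle 1 outlined. Trametinib 4 stands at 25.7% ribosomal protein counts, and Trametinib 1, Trametinib 2 and Vehicle 1 share GC correlations of −0.413 to −0.538 while the other Vehicle tumours lie between 0.307 and 0.426.

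MEK1 and MEK2 phosphorylate and activate the kinases ERK1 and ERK2, the last step of the cascade from receptor tyrosine kinases through RAS and RAF. Active ERK enters the nucleus and induces immediate early genes and a set of feedback inhibitors, among them the dual-specificity phosphatases that dephosphorylate ERK and the Sprouty proteins that act near the receptor. ERK signalling also relieves repression by Capicua (CIC), a DNA-binding repressor of ETS factor genes such as ETV4. Transcripts of these genes are used as a readout of ERK pathway output in tumours treated with MEK inhibitors.

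Promoters are shown for genes of the ERK output list that were lower under trametinib in both sets of tumours, since these genes moved together. RefSeq's promoter table (GRCh38.p14) held 4 of the 6 such genes, and ETV4 and DUSP4 had no match. The 250 bases before each start are printed 5′ to 3′ on the gene's own strand, the minus strand for all 4, with matches in capitals. These windows end at RefSeq's start sites, which lie inside the annotated gene spans given further on. They lie at chr12:89352502-89352751 for DUSP6, chr5:142324248-142324497 for SPRY4, chr1:16156070-16156319 for EPHA2 and chr12:76031777-76032026 for PHLDA1.
DUSP6: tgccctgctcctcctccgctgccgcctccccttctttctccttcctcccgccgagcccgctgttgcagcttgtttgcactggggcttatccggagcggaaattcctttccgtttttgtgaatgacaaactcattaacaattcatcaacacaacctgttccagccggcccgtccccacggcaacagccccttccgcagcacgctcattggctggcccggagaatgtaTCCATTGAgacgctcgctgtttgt
SPRY4: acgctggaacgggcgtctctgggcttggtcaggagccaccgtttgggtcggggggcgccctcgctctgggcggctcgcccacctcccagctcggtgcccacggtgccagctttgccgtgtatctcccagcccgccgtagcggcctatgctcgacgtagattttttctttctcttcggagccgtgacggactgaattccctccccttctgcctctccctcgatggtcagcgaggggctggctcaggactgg
EPHA2: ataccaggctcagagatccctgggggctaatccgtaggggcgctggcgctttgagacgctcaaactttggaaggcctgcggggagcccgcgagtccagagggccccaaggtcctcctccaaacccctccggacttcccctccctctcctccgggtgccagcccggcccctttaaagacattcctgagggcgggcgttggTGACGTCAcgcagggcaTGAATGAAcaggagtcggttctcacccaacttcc
PHLDA1: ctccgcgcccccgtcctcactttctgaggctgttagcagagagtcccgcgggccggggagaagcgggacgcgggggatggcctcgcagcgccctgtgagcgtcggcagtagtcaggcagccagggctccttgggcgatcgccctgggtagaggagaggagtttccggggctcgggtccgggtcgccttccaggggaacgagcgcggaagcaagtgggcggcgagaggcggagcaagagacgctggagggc
Both strands were searched for the CIC octamer (TGAATGAA, TCAATGAA, TGAATGGA or TCAATGGA), an ETS motif (CCGGAAG), the AP-1 motif (TGANTCA) and the cyclic AMP response element (TGACGTCA). The DUSP6 promoter held TCAATGGA on the other strand, first base 24 before the start. The EPHA2 promoter held TGAATGAA 34 before the start and TGACGTCA 51 before it, and no match lay in the SPRY4 and PHLDA1 windows. Among the 15931 promoters of tested genes, 2.22% held a CIC octamer, 13.4% the ETS motif, 4.84% the AP-1 motif and 2.35% the cyclic AMP response element. A match describes these letters and does not show binding.

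Transcripts lower under trametinib outnumbered those higher among the changes that held with and without the 2 libraries that stood apart. By the edgeR quasi-likelihood test, 0 of 17652 genes (0% called) passed an adjusted p of 0.05 with all tumours, although 3327 had an unadjusted p under 0.05, and the smallest edgeR adjusted p was 0.0504, for DUSP5. In the reduced set 8 of 17906 genes passed by edgeR (0.0447% called), all of them lower under trametinib, with 4073 at an unadjusted p under 0.05. They were DUSP6, RASD1, DUSP5, ZFP36 and STPG3, and the antisense genes MELTF-AS1, AC020916.1 and AC008105.3 with log2 fold changes of −1.19 ± 0.19, −1.31 ± 0.24 and −1.61 ± 0.30 in that set (SE). With all tumours these 3 had −1.38 ± 0.47, −0.93 ± 0.29 and −1.15 ± 0.36, and −0.96, −0.52 and −0.47 after GC correction. None of the 8 passed edgeR with the replicate block. DESeq2, a second count test, called 369 genes with all tumours (2.15% called), 257 higher and 112 lower, and 801 in the reduced set (5.69% called), 268 higher and 533 lower. Since no gene passed edgeR in both sets, a change is said below to hold where DESeq2 called it in both sets in the same direction, a rule added after seeing the data. By it MELTF-AS1 holds (DESeq2 adjusted p 0.0342 and 5.72e-06, with the replicate block 0.924 and 0.0501) and AC020916.1 (0.0848 and 0.000101 by DESeq2) and AC008105.3 (0.0716 and 4.51e-05 by DESeq2) do not. Where a pair of fold changes or p-values follows without further words, the value with all tumours is followed by that in the reduced set.

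By that rule 114 genes held (0.826% of 13805 genes with an adjusted p in both), 24 higher (0.174%) and 90 lower (0.652%). They were 30.9% of the calls with all tumours and 14.2% of those in the reduced set, and 0 genes were called in opposite directions. Of the 114, 90 were protein-coding, 82 differed by at least 1 on the log2 scale, and in 31 all 4 trametinib tumours lay on one side of all 6 Vehicle tumours. The 114 were picked by a test of the same difference, so the 31 are no further evidence, and the share over all genes is not given here. In 27 of the 114, Trametinib 4 had no count at all, against 2695 of all 17652 tested genes. In that library 3 counts correspond to 0.480 CPM. Its commonest nonzero count was 12, against 1 in every other trametinib and Vehicle tumour. So 0.480 CPM is not to be read as its detection floor.

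The number of genes that held depended on single tumours. It was 12 to 22 without Trametinib 1, 2 or 4, 19 to 44 without Vehicle 3, 5, 6 or 7, 97 without Vehicle 2, 578 without Vehicle 1 and 1101 without Trametinib 3. Across the 18 fits that left out 1 tumour, DUSP6, DUSP5, RASD1 and STPG3 kept their DESeq2 call in every one, and 17 of the 114 genes kept it in at least 15. With the replicate number as a block, 1 gene passed DESeq2 in both sets, DUSP5, and 6 passed in the reduced set. Replicate numbers 5, 6 and 7 occurred only under Vehicle, with 1 tumour each, so the block fits these tumours exactly. All blocked values of this report therefore draw on Vehicle 1, 2 and 3 alone among the Vehicle tumours, and in the reduced set on Vehicle 2 and 3. Whether a call was lost through the block or through fewer Vehicle tumours was not tested. The GC content of the genes that held had a median of 42.1% for those higher and 60.3% for those lower, against 48.3% over all tested genes, and after correction for GC content 64 of the 114 genes still held (7 higher and 57 lower).

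**Figure D2:**
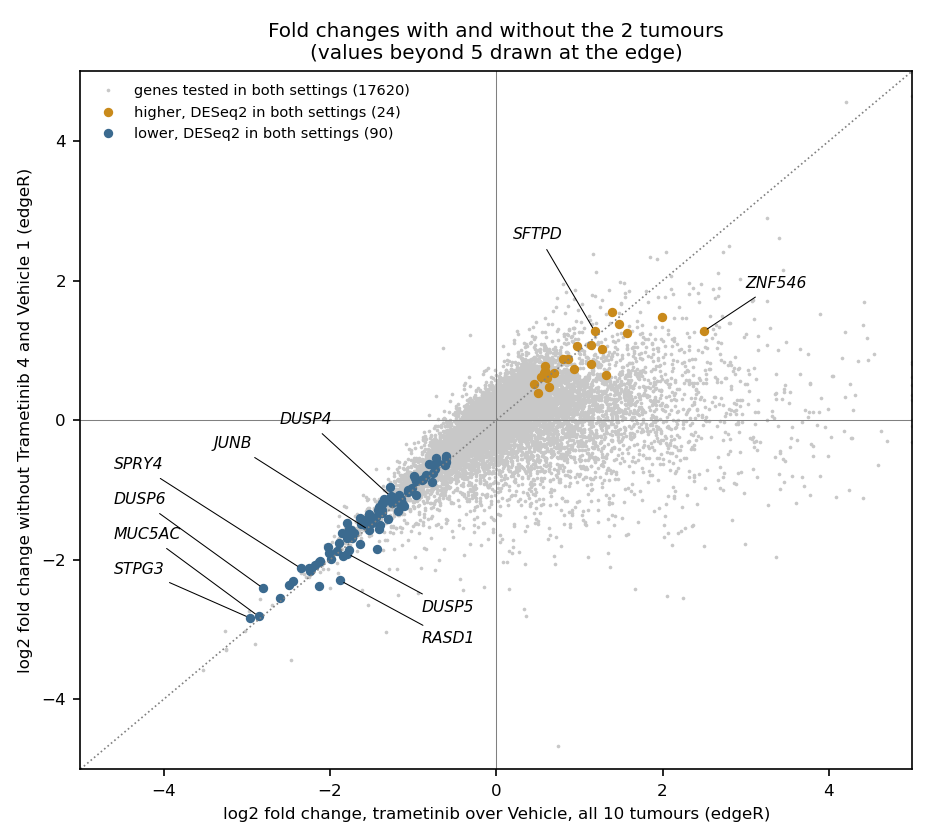
log2 fold change, trametinib over Vehicle, of each tested gene with all tumours (horizontal axis) and without Trametinib 4 and Vehicle 1 (vertical axis). Points in colour are the 24 genes higher and the 90 genes lower by DESeq2 in both sets. DUSP6 lies at −2.80 on the horizontal and −2.41 on the vertical axis, and DUSP5 at −1.79 and −1.91.

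Of 10 tested MAP kinase phosphatase genes, DUSP6, DUSP5 and DUSP4 fell under trametinib and 7 did not hold, and with the replicate block only DUSP5 held. DUSP6, the cytoplasmic phosphatase specific for ERK (ENSG00000139318, chromosome 12, 89347232 to 89353271, minus strand, hg38 here and below), had 2.79, 3.28, 4.15 and 0 CPM in Trametinib 1 to 4 and, under Vehicle, 8.05 CPM at the lowest, 21.2 at the median and 25.8 at the highest. All 4 trametinib tumours lay below all 6 Vehicle tumours, with Trametinib 4 at 0. The means were 2.55 ± 1.79 CPM under trametinib and 18.5 ± 6.59 CPM under Vehicle (SD, n = 4 and 6). By edgeR the log2 fold change was −2.80 ± 0.51 (SE) with all tumours and −2.41 ± 0.36 in the reduced set. DESeq2 adjusted p was 2.27e-07 and 3.4e-08, against edgeR adjusted p of 0.0663 and 0.0151. With the replicate block DESeq2 adjusted p was 0.162 and 0.0672.

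DUSP5, the nuclear phosphatase specific for ERK (ENSG00000138166, chromosome 10, 110497838 to 110511544, plus strand), had 8.59, 8.69, 7.16 and 9.28 CPM in Trametinib 1 to 4, and Vehicle tumours had 22.1 CPM at the lowest, 25.4 at the median and 41.8 at the highest. The 4 trametinib tumours lay close together and far below the lowest Vehicle tumour. The means were 8.43 ± 0.898 CPM under trametinib and 29.1 ± 8.59 CPM under Vehicle (SD, n = 4 and 6), a log2 fold change of −1.79 ± 0.29 with all tumours and −1.91 ± 0.32 in the reduced set. DESeq2 adjusted p was 1.83e-05 and 5.72e-06, and 0.00293 and 0.00997 with the replicate block, and edgeR adjusted p was 0.0504 and 0.035. DUSP4, a nuclear phosphatase of ERK and other MAP kinases (ENSG00000120875), had 178, 194, 254 and 68.0 CPM in Trametinib 1 to 4 and, under Vehicle, 310.4 CPM at the lowest, 421 at the median and 499.9 at the highest. The groups did not overlap, and Trametinib 4 was the lowest of the 10 tumours. Its log2 fold change was −1.27 ± 0.29 with all tumours and −1.09 ± 0.24 in the reduced set (DESeq2 adjusted p 0.00652 and 0.00293, with the replicate block 0.768 and 0.469). In the reduced set without Trametinib 1 or 2 as well, DUSP4 had a DESeq2 adjusted p of 0.0842 to 0.101. After GC correction the all-tumour log2 fold changes by edgeR were −2.83 for DUSP6, −1.52 for DUSP5 and −1.19 for DUSP4. DUSP14, another phosphatase gene, did not pass (0.37 ± 0.21 and 0.16 ± 0.21). The median log2 fold change of the 10 phosphatase genes was −0.46 with all tumours and −0.41 in the reduced set, against −0.005 and 0.001 over all tested genes.

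The receptor-proximal inhibitor SPRY4 also fell, but most Sprouty and SPRED genes did not pass. SPRY4, which dampens signalling from receptors to RAS and ERK (ENSG00000187678, chromosome 5, 142310427 to 142326455, minus strand), had 0.979, 0.355, 1.14 and 0 CPM in Trametinib 1 to 4, against 1.93 CPM at the lowest, 3.09 at the median and 5.31 at the highest under Vehicle. Every trametinib tumour lay below every Vehicle tumour. The log2 fold change was −2.35 ± 0.60 with all tumours and −2.12 ± 0.50 in the reduced set, with DESeq2 adjusted p of 0.00297 and 0.00159 and, with the replicate block, 0.46 and 0.282. SPRY4 lost its DESeq2 call in 1 of the 18 leave-one-out fits (reduced set without Trametinib 2, adjusted p 0.0842). SPRY2, a second Sprouty feedback inhibitor, had 14.8, 18.1, 13.1 and 26.1 CPM in Trametinib 1 to 4 and 19.3 CPM at the lowest, 22.1 at the median and 30.4 at the highest under Vehicle. Trametinib 4 lay within the Vehicle range, and the other 3 trametinib tumours lay below it. SPRY2 did not pass with all tumours and passed in the reduced set (−0.39 ± 0.18 and −0.69 ± 0.16, DESeq2 adjusted p 0.252 and 0.00363, blocked 0.924 and 0.354). SPRED2, an inhibitor of RAS activation, did not pass (−0.63 ± 0.30 and −0.51 ± 0.22). Of the 7 tested genes of this family 1 held lower and 6 did not hold, with a median of −0.39 with all tumours and −0.51 in the reduced set.

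Of the other ERK output genes ETV4, PHLDA1 and EPHA2 fell, while ETV5 and CCND1 did not pass and EPHA4 fell below the count filter. ETV4, an ETS transcription factor (ENSG00000175832, chromosome 17, 43527844 to 43579620, minus strand), had 9.49, 4.96, 8.14 and 0.960 CPM in Trametinib 1 to 4, against 6.86 CPM at the lowest, 20.2 at the median and 29.3 at the highest under Vehicle. Vehicle 1 was the lowest Vehicle tumour and lay within the trametinib range, and without Vehicle 1 and Trametinib 4 the groups did not overlap. On the log2 scale the change was −1.63 ± 0.48 with all tumours and −1.48 ± 0.37 in the reduced set (DESeq2 adjusted p 0.0336 and 0.00783). ETV4 did not hold after GC correction (DESeq2 adjusted p 0.0426 and 0.0766), and it lost its call in 7 of the 18 leave-one-out fits (adjusted p 0.0535 to 0.219). Those fits left out Trametinib 4 or Vehicle 3, 5, 6 or 7 from all tumours, or Trametinib 1 or 2 from the reduced set.

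PHLDA1, a pleckstrin homology-like domain protein (ENSG00000139289, chromosome 12, 76025447 to 76033932, minus strand), had 3.69, 2.48, 2.20 and 6.08 CPM in Trametinib 1 to 4, against 3.62 CPM at the lowest, 8.92 at the median and 18.5 at the highest under Vehicle. Trametinib 4 was the highest trametinib tumour here, and the groups overlapped at the lowest Vehicle tumour. Trametinib over Vehicle, the log2 fold change was −1.43 ± 0.41 with all tumours and −1.84 ± 0.42 in the reduced set (DESeq2 adjusted p 0.0405 and 0.00313). EPHA2, a receptor tyrosine kinase for ephrins (ENSG00000142627, chromosome 1, 16124337 to 16156087, minus strand), had 28.9, 32.3, 36.1 and 4.64 CPM in Trametinib 1 to 4, against 25.9 CPM at the lowest, 82.9 at the median and 108 at the highest under Vehicle. Vehicle 1, at 25.9 CPM, overlapped the trametinib tumours, and the other 5 Vehicle tumours lay above them. The log2 fold change was −1.57 ± 0.43 with all tumours and −1.43 ± 0.30 in the reduced set (DESeq2 adjusted p 0.0228 and 0.00137). PHLDA1 lost its call in 7 leave-one-out fits (DESeq2 adjusted p 0.0552 to 0.141: Trametinib 1 or 2 or Vehicle 3, 5, 6 or 7 left out of all tumours, Trametinib 2 out of the reduced set). EPHA2 lost it in 6 (DESeq2 adjusted p 0.0541 to 0.158: Trametinib 4 or Vehicle 3, 5, 6 or 7 left out of all tumours, Trametinib 1 out of the reduced set). Blocked DESeq2 adjusted p was 0.924 and 0.619 for ETV4, 0.924 and 0.543 for PHLDA1 and 0.924 and 0.465 for EPHA2. ETV5, a close relative of ETV4, had a log2 fold change of −0.59 ± 0.34 and −0.78 ± 0.37 (DESeq2 adjusted p 0.318 and 0.143). CCND1, the G1 cyclin D1, had −0.70 ± 0.32 and −0.49 ± 0.23 (DESeq2 adjusted p 0.16 and 0.153).

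Over the whole ERK output list, 6 of the 9 tested genes held lower and 3 did not hold, with a median log2 fold change of −1.43 with all tumours and −1.43 in the reduced set. This list has been used on these samples before, so its count is not independent evidence of its direction. As a mean log2 CPM over the 9 genes, Trametinib 1 to 4 had 3.66, 3.47, 3.71 and 2.08, against 4.37 to 5.34 under Vehicle. No trametinib tumour reached the lowest Vehicle tumour. The means were 3.23 ± 0.77 under trametinib and 4.81 ± 0.37 under Vehicle (SD, n = 4 and 6), and 3.61 ± 0.12 and 4.90 ± 0.34 in the reduced set (SD, n = 3 and 5). The difference was −1.58 with all tumours and −1.28 in the reduced set. Counting is not stated to use strand, and DUSP6, EPHA2, ETV4, PHLDA1, SPRY4, JUNB and IER3 overlap annotated genes on the opposite strand, whose reads may be counted with them.

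**Figure D3:**
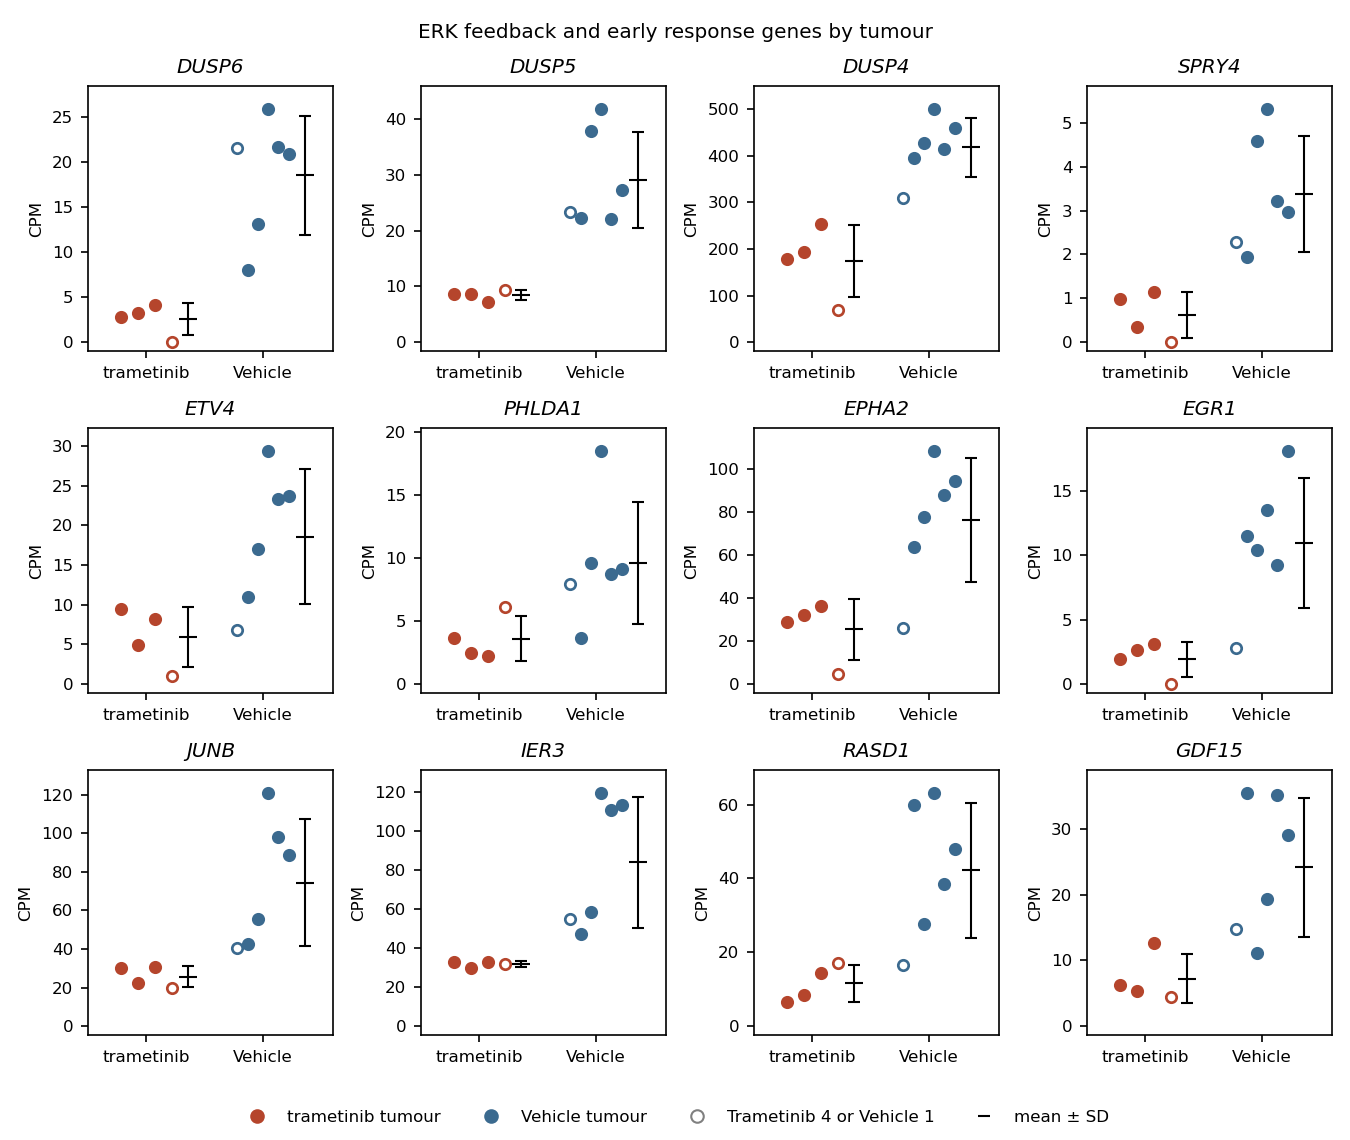
CPM of 12 ERK-responsive genes in each tumour, trametinib left of Vehicle in every panel, with mean and SD as bars and hollow points for Trametinib 4 and Vehicle 1. DUSP6 lies at 0 to 4.15 CPM under trametinib and 8.05 to 25.8 CPM under Vehicle, and DUSP5, DUSP4, SPRY4, JUNB and IER3 likewise show no overlap, while in ETV4, PHLDA1, EPHA2, EGR1, RASD1 and GDF15 at least 1 Vehicle tumour lies within the trametinib range.

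Of 18 tested immediate early and AP-1 genes, which growth factor signals induce, JUNB, IER3 and EGR1 fell under trametinib and 15 did not hold. JUNB, an AP-1 subunit (ENSG00000171223, chromosome 19, 12791496 to 12793315, plus strand), had 30.0, 22.2, 30.4 and 20 CPM in Trametinib 1 to 4, against 40.3 CPM at the lowest, 72.0 at the median and 121 at the highest under Vehicle. IER3, an early response gene that ERK signalling induces (ENSG00000137331, chromosome 6, 30743199 to 30744554, minus strand), had 33.0, 30.0, 33.1 and 31.8 CPM in Trametinib 1 to 4, against 47.5 CPM at the lowest, 84.9 at the median and 119 at the highest under Vehicle. In both genes all trametinib tumours lay below all Vehicle tumours. The log2 fold change of JUNB was −1.53 ± 0.32 with all tumours and −1.57 ± 0.33 in the reduced set (DESeq2 adjusted p 0.00302 and 0.00121). That of IER3 was −1.40 ± 0.30 and −1.51 ± 0.33 (DESeq2 adjusted p 0.00692 and 0.00159). Both lost their call in the reduced set without Trametinib 2 (DESeq2 adjusted p 0.0625 for each) and with the replicate block (0.924 and 0.583 for JUNB, 0.924 and 0.597 for IER3).

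EGR1, a zinc finger transcription factor (ENSG00000120738, chromosome 5, 138465490 to 138469315, plus strand), had 1.96, 2.66, 3.09 and 0 CPM in Trametinib 1 to 4, against 2.83 CPM at the lowest, 11 at the median and 18.1 at the highest under Vehicle. Vehicle 1, at 2.83 CPM, lay within the trametinib range, and the other Vehicle tumours lay above it. On the log2 scale the change was −2.45 ± 0.70 with all tumours and −2.31 ± 0.58 in the reduced set, with DESeq2 adjusted p of 0.0225 and 0.00468 and, with the replicate block, 0.924 and 0.448. EGR1 lost its call in 6 leave-one-out fits (DESeq2 adjusted p 0.0531 to 0.132: Trametinib 4 or Vehicle 3, 5 or 7 left out of all tumours, Trametinib 1 or 2 out of the reduced set). The median log2 fold change of the 18 genes was −0.50 with all tumours and −0.55 in the reduced set. ZFP36, an early gene whose protein speeds mRNA decay and which is on that list, passed in the reduced set only (−1.63 ± 0.56 with all tumours and −1.47 ± 0.25 in the reduced set). Its DESeq2 adjusted p was 0.0695 and 2.94e-05, and 0.924 and 0.212 with the replicate block, and its edgeR adjusted p 0.148 and 0.035. Of the 18, 7 were lower by DESeq2 in the reduced set.

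RASD1 and STPG3 were the other genes that passed in every leave-one-out fit. RASD1, a RAS-related GTPase induced by dexamethasone (ENSG00000108551, chromosome 17, 17494437 to 17496395, minus strand), had 6.48, 8.42, 14.4 and 17.1 CPM in Trametinib 1 to 4, against 16.5 CPM at the lowest, 43.3 at the median and 63.1 at the highest under Vehicle. Vehicle 1 was the lowest Vehicle tumour and the only one within the trametinib range. Trametinib over Vehicle, the log2 fold change was −1.88 ± 0.37 with all tumours and −2.30 ± 0.35 in the reduced set. DESeq2 adjusted p was 0.00199 and 3.4e-08, edgeR adjusted p 0.0663 and 0.0151, and DESeq2 adjusted p with the replicate block 0.317 and 0.00997. STPG3, a sperm-tail repeat gene (ENSG00000197768, chromosome 9, 137251261 to 137253483, plus strand), had 0.527, 0.266, 0.407 and 0 CPM in Trametinib 1 to 4, against 1.1 CPM at the lowest, 2.50 at the median and 4.00 at the highest under Vehicle. The groups did not overlap, at low levels throughout. Its log2 fold change was −2.96 ± 0.57 with all tumours and −2.83 ± 0.51 in the reduced set (DESeq2 adjusted p 0.00066 and 0.00019, blocked 0.162 and 0.0319). STPG3 overlaps STPG3-AS1 on the opposite strand.

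Of 16 further ERK-responsive genes, GDF15 and MYEOV fell and 14 did not hold (median −0.32 with all tumours and −0.34 in the reduced set). GDF15, a secreted stress cytokine of the TGF-beta family (ENSG00000130513, chromosome 19, 18374731 to 18389176, plus strand), had 6.33, 5.32, 12.7 and 4.48 CPM in Trametinib 1 to 4, against 11 CPM at the lowest, 24.2 at the median and 35.4 at the highest under Vehicle. Only Trametinib 3 reached the Vehicle range. Its log2 fold change was −1.73 ± 0.37 with all tumours and −1.69 ± 0.39 in the reduced set (DESeq2 adjusted p 0.00302 and 0.00285, blocked 0.843 and 0.511). GDF15 lost its call in the reduced set without Trametinib 1 or 2 (DESeq2 adjusted p 0.0938 to 0.104). MYEOV (ENSG00000172927, chromosome 11, 69294138 to 69367726, plus strand) had 40.5, 41.9, 36.2 and 29 CPM in Trametinib 1 to 4 and 50.5 CPM at the lowest, 60.7 at the median and 69.7 at the highest under Vehicle, with no overlap. Its log2 fold change of −0.71 ± 0.17 and −0.60 ± 0.17 passed DESeq2 in both sets (adjusted p 0.0087 and 0.0243) but not with the replicate block (0.375 and 0.561) or after GC correction (0.162 and 0.465), and it lost its call in 7 leave-one-out fits (adjusted p 0.0517 to 0.199). Those fits left out Trametinib 4 from all tumours, or any 1 trametinib tumour or Vehicle 3, 5 or 7 from the reduced set. LIF, a cytokine of the interleukin 6 family, passed in the reduced set only (−1.10 ± 0.46 and −0.82 ± 0.22, DESeq2 adjusted p 0.083 and 0.0175, blocked 0.924 and 0.593). IER5, another early response gene, did not pass (−0.76 ± 0.25 and −0.65 ± 0.24).

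Genes of the targeted kinases did not pass the test. MAP2K1 and MAP2K2, which encode MEK1 and MEK2, averaged 50.1 ± 10.3 CPM and 128 ± 36.6 CPM under trametinib, against 52.2 ± 7.69 CPM and 151 ± 21.9 CPM under Vehicle (SD, n = 4 and 6). The log2 fold changes were −0.06 ± 0.17 and 0.05 ± 0.16 for MAP2K1 (DESeq2 adjusted p 0.867 and 0.899) and −0.24 ± 0.21 and −0.15 ± 0.19 for MAP2K2 (DESeq2 adjusted p 0.492 and 0.609). None of the 11 tested RAF, MEK and ERK kinase genes held (median −0.10 with all tumours and 0.05 in the reduced set). BRAF, the kinase that activates MEK, had 51.8, 57.6, 52.1 and 42.2 CPM in Trametinib 1 to 4 and 36.4 CPM at the lowest, 39.7 at the median and 57.7 at the highest under Vehicle. The highest Vehicle value was Vehicle 1, and BRAF passed in the reduced set only (0.26 ± 0.14 and 0.42 ± 0.11, DESeq2 adjusted p 0.141 and 0.00783, after GC correction 0.398 and 0.538, blocked 0.924 and 0.592).

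Upstream of the kinases, RIT1 (ENSG00000143622, chromosome 1, 155897808 to 155911404, minus strand) averaged 121 ± 26.5 CPM under trametinib and 118 ± 17.1 CPM under Vehicle (SD, n = 4 and 6). Its log2 fold change was 0.03 ± 0.17 with all tumours and 0.23 ± 0.15 in the reduced set (DESeq2 adjusted p 0.892 and 0.297). LZTR1, a cullin 3 adaptor that targets RIT1 and other RAS GTPases for ubiquitination (ENSG00000099949, chromosome 22, 20982013 to 20999038, plus strand), fell. It had 9.19, 12.1, 14.4 and 4.48 CPM in Trametinib 1 to 4, against 9.60 CPM at the lowest, 22.8 at the median and 27.0 at the highest under Vehicle. Vehicle 1, at 9.60 CPM, lay within the trametinib range, and the other 5 Vehicle tumours lay above it. The log2 fold change was −1.07 ± 0.29 with all tumours and −1.0 ± 0.22 in the reduced set (DESeq2 adjusted p 0.031 and 0.00313, blocked 0.924 and 0.282). LZTR1 lost its call in 8 leave-one-out fits (DESeq2 adjusted p 0.0565 to 0.263: Trametinib 4 or any of Vehicle 2, 3, 5, 6 and 7 left out of all tumours, Trametinib 1 or 2 out of the reduced set). It overlaps AC002470.2 on the same strand, and reads may be split between them. LZTR1 was the 1 gene of 21 on the list of RAS and upstream genes to hold (median 0.03 with all tumours and 0.20 in the reduced set). SHC1, an adaptor between receptors and RAS, did not pass (−0.43 ± 0.19 and −0.38 ± 0.18).

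None of 14 tested genes on the receptor tyrosine kinase list and none of 7 tested EGF receptor ligand genes held (medians −0.06 and −0.25, and −0.05 and −0.14, with all tumours and in the reduced set). The receptor tyrosine kinase list leaves out EPHA2, which held lower and is counted with the ERK output genes above. ERBB2, a partner receptor of the EGF receptor family, averaged 183 ± 109.9 CPM under trametinib and 339 ± 156 CPM under Vehicle, with Vehicle 1 lowest at 71.7 CPM, a log2 fold change of −0.88 ± 0.47 and −0.90 ± 0.43. DDR1, a collagen receptor kinase, had −0.87 ± 0.44 and −0.81 ± 0.39. After GC correction the all-tumour values were −0.57 for ERBB2 and −0.44 for DDR1. Among the ligands the log2 fold changes were −0.92 ± 0.39 and −1.13 ± 0.44 for AREG, −0.96 ± 0.42 and −0.66 ± 0.44 for EREG, −1.11 ± 0.43 and −0.83 ± 0.41 for HBEGF, and 0.48 ± 0.24 and 0.64 ± 0.21 for BTC. With the replicate block and all tumours, where Vehicle 5, 6 and 7 do not enter the difference, they were −0.0270 for AREG and −0.38 for EREG. Without Vehicle 5 and with no block AREG had −0.47. DESeq2 adjusted p of these 6 genes lay between 0.101 (HBEGF) and 0.232 (ERBB2) with all tumours, and between 0.0589 (BTC) and 0.282 (EREG) in the reduced set.

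Of the NF-kB and cytokine list 1 gene of 12 held, CXCL3, a neutrophil-attracting chemokine. CXCL3 (ENSG00000163734, chromosome 4, 74036589 to 74038807, minus strand) had 1.05, 1.42, 3.01 and 0 CPM in Trametinib 1 to 4, against 2.74 CPM at the lowest, 4.61 at the median and 8.30 at the highest under Vehicle. Trametinib 3 overlapped the lowest Vehicle tumour, Vehicle 1. On the log2 scale the change was −1.77 ± 0.50 with all tumours and −1.56 ± 0.36 in the reduced set (DESeq2 adjusted p 0.0114 and 0.00313, blocked 0.924 and 0.583). CXCL3 lost its call without Trametinib 4, and in the reduced set without Trametinib 1 or 2 (DESeq2 adjusted p 0.0579 to 0.135). The related chemokines CXCL1 (−0.83 ± 0.35 and −1.11 ± 0.37, DESeq2 adjusted p 0.164 and 0.0428, blocked 0.924 and 0.601) and CXCL2 (−1.36 ± 0.53 and −1.13 ± 0.35, DESeq2 adjusted p 0.0885 and 0.0342, blocked 0.924 and 0.804) passed in the reduced set only. In that set DESeq2 called 4 of the 12 lower. The median of the list was −0.64 with all tumours and −0.71 in the reduced set. On the FOXO-linked list of 18 (median −0.13 with all tumours and −0.03 in the reduced set), 2 genes fell, IRS2, an adaptor of the insulin receptor (−1.18 ± 0.33 and −1.18 ± 0.33, DESeq2 adjusted p 0.0336 and 0.0163), and TRIB1, a pseudokinase (−0.98 ± 0.30 and −0.83 ± 0.22, DESeq2 adjusted p 0.0435 and 0.0193). With the replicate block DESeq2 adjusted p was 0.924 and 0.469 for IRS2 and 0.924 and 0.469 for TRIB1. IRS2 had 133, 189, 275 and 119.5 CPM in Trametinib 1 to 4 and 208 CPM at the lowest, 452 at the median and 483 at the highest under Vehicle, with Vehicle 1 the lowest Vehicle tumour. IRS2 kept its call in 9 of 18 leave-one-out fits and TRIB1 in 7. IRS2 lost its call with Trametinib 1 or 4 or Vehicle 2, 3, 5, 6 or 7 left out of all tumours, and with Trametinib 1 or 2 left out of the reduced set (DESeq2 adjusted p 0.0564 to 0.278). TRIB1 lost its call with Trametinib 1 or 4 or Vehicle 2, 3, 5, 6 or 7 left out of all tumours, and with Trametinib 1 or 2 or Vehicle 5 or 7 left out of the reduced set (DESeq2 adjusted p 0.05 to 0.336). BCL6 on the same list did not pass (−0.89 ± 0.34 and −0.85 ± 0.29).

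MUC5AC and MUC5B were lower and SFTPD higher by DESeq2 in both sets, and none of the 3 passed with the replicate block. MUC5AC, a gel-forming mucin of airway mucus (ENSG00000215182, chromosome 11, 1157953 to 1201138, plus strand), had 122, 215, 640.2 and 77.8 CPM in Trametinib 1 to 4, against 153 CPM at the lowest, 2289 at the median and 2554 at the highest under Vehicle. Vehicle 1, at 153 CPM, lay within the trametinib range, and the other 5 Vehicle tumours lay far above it. Trametinib over Vehicle, the log2 fold change was −2.86 ± 0.76 with all tumours and −2.81 ± 0.70 in the reduced set (DESeq2 adjusted p 0.0167 and 0.00179, blocked 0.732 and 0.395). MUC5AC lost its call without Trametinib 4 or Vehicle 7, and in the reduced set without Trametinib 1 or 2 (DESeq2 adjusted p 0.0529 to 0.178). MUC5B, the neighbouring gel-forming mucin gene (ENSG00000117983, chromosome 11, 1223066 to 1262172, plus strand), had 90.4, 157, 759.9 and 77.1 CPM in Trametinib 1 to 4 and 134 CPM at the lowest, 1776 at the median and 2664 at the highest under Vehicle. Again Vehicle 1 was lowest, at 134 CPM, and Trametinib 3 highest of its group. MUC5B had log2 fold changes of −2.6 ± 0.89 and −2.54 ± 0.89 (DESeq2 adjusted p 0.0405 and 0.0344, blocked 0.924 and 0.618). It did not hold after GC correction (0.0507 and 0.107) and lost its DESeq2 call in 14 of the 18 leave-one-out fits (adjusted p 0.0556 to 0.419), all except those without Trametinib 3, Vehicle 1 or, in the reduced set, Trametinib 3 or Vehicle 2. The membrane mucin MUC1 did not pass (−0.93 ± 0.43 and −1.21 ± 0.47, DESeq2 adjusted p 0.195 and 0.0692). The 3 mucin genes were chosen after their values were seen.

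SFTPD, surfactant protein D of the alveolar lining (ENSG00000133661, chromosome 10, 79937740 to 79982614, minus strand), had 10.2, 9.93, 7.73 and 10.2 CPM in Trametinib 1 to 4, against 2.12 CPM at the lowest, 3.86 at the median and 6.28 at the highest under Vehicle. All 4 trametinib tumours lay above all 6 Vehicle tumours. The log2 fold change was 1.18 ± 0.32 with all tumours and 1.28 ± 0.33 in the reduced set (DESeq2 adjusted p 0.023 and 0.0146, after GC correction 0.0153 and 0.000507, blocked 0.773 and 0.395). SFTPD lost its call in 6 leave-one-out fits (DESeq2 adjusted p 0.064 to 0.187: Trametinib 4 or Vehicle 3, 5 or 7 left out of all tumours, Trametinib 1 or 2 out of the reduced set). It overlaps AL512662.1 on the same strand. SFTPD was the 1 gene of 14 tested on the alveolar type 2 list to hold (median 0.74 with all tumours and 0.40 in the reduced set), while the defining marker SFTPC had 14 counts over all 10 tumours and was not tested. BPIFA1, a secreted airway protein chosen after its values were seen, had 0, 5.14, 5.54 and 1.44 CPM in Trametinib 1 to 4 and 0 to 0.457 CPM under Vehicle. BPIFA1 did not pass edgeR (adjusted p 0.0882 and 0.0736), and Trametinib 1 had no count.

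**Figure D4:**
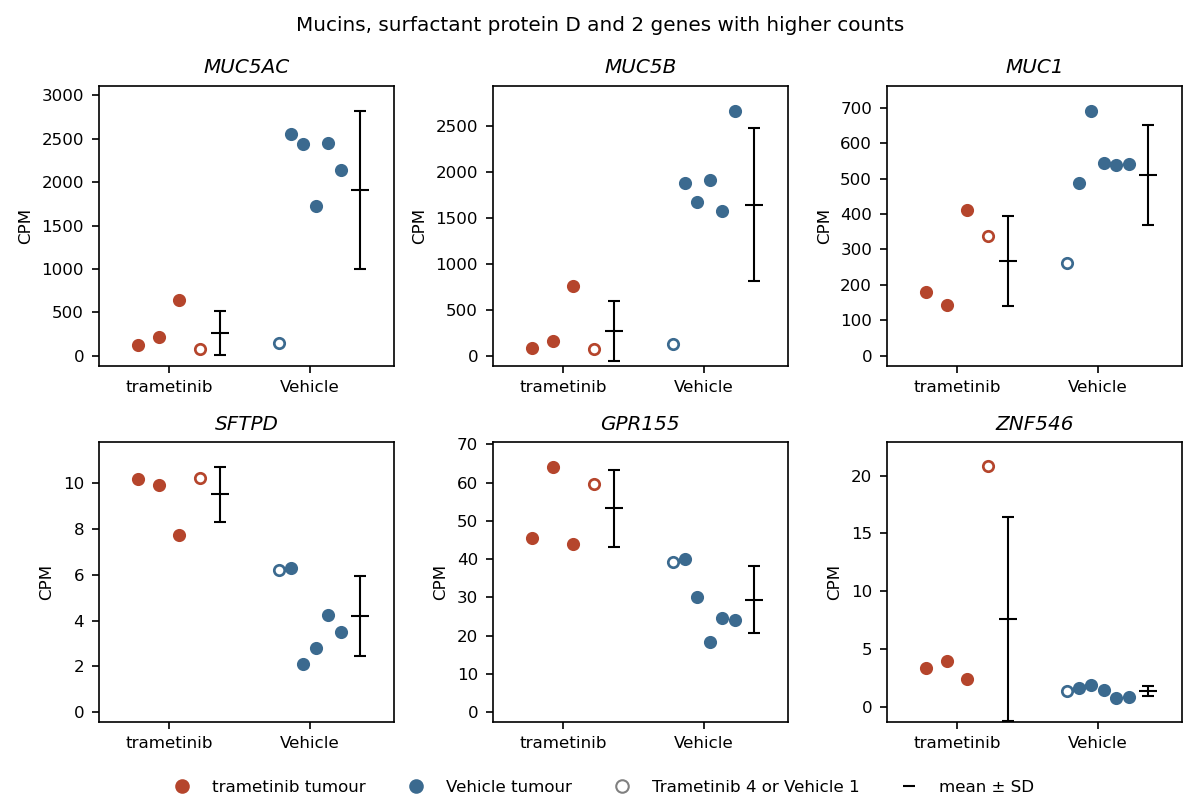
CPM of MUC5AC, MUC5B, MUC1, SFTPD, GPR155 and ZNF546 in each tumour, trametinib left of Vehicle, with mean and SD as bars and hollow points for Trametinib 4 and Vehicle 1. Vehicle 1 lies among the trametinib tumours for MUC5AC and MUC5B, and SFTPD, GPR155 and ZNF546 show no overlap between the groups.

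The largest changes were named by a rule that took protein-coding genes that held with no overlap between the 4 trametinib and 6 Vehicle tumours and whose mean log2 CPM reached 1. Besides DUSP6, DUSP5, JUNB, IER3 and DUSP4, the largest falls were C2CD4A, SLC16A3 and PTGS1. C2CD4A (ENSG00000198535, chromosome 15, 62066977 to 62070917, plus strand) had 4.97, 2.57, 4.56 and 0 CPM in Trametinib 1 to 4 and 6.95 CPM at the lowest, 10.5 at the median and 19.4 at the highest under Vehicle, a log2 fold change of −1.86 ± 0.49 and −1.62 ± 0.34 (DESeq2 adjusted p 0.00819 and 0.00137). SLC16A3, the lactate exporter MCT4, had −1.34 ± 0.43 and −1.14 ± 0.37 (DESeq2 adjusted p 0.045 and 0.038, after GC correction 0.0612 and 0.217). PTGS1, cyclooxygenase 1 of prostaglandin synthesis, had −1.11 ± 0.30 and −1.23 ± 0.32 (DESeq2 adjusted p 0.0377 and 0.0127). HAL, the first enzyme of histidine breakdown and chosen after its values were seen, fell with overlap (−1.34 ± 0.29 and −1.13 ± 0.28, DESeq2 adjusted p 0.00266 and 0.00783). These 4 genes kept their DESeq2 calls in 17 (C2CD4A), 7 (SLC16A3), 8 (PTGS1) and 16 (HAL) of the 18 leave-one-out fits. C2CD4A lost its call with Trametinib 2 left out of the reduced set (DESeq2 adjusted p 0.077). SLC16A3 lost its call with Trametinib 4 or Vehicle 3, 5, 6 or 7 left out of all tumours, and with Trametinib 1 or 2 or Vehicle 3, 5, 6 or 7 left out of the reduced set (DESeq2 adjusted p 0.0774 to 0.331). PTGS1 lost its call with Trametinib 1, 2 or 4 or Vehicle 3, 5, 6 or 7 left out of all tumours, and with Trametinib 1 or 2 or Vehicle 7 left out of the reduced set (DESeq2 adjusted p 0.0542 to 0.195). HAL lost its call with Trametinib 1 or 2 left out of the reduced set (DESeq2 adjusted p 0.0776 to 0.133). With the replicate block their DESeq2 adjusted p was 0.898 to 0.924 with all tumours and 0.577 to 0.678 in the reduced set. SLC16A3 and PTGS1 overlap same-strand neighbours (AC132872.3 and AC132872.4, and AL162424.1), so their counts are uncertain.

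The rises by that rule were ZNF546, CDC42, SFTPD, SHLD1, GPR155 and UBN2. GPR155, a lysosomal membrane protein (ENSG00000163328, chromosome 2, 174431571 to 174487094, minus strand), had 45.6, 64.2, 44.0 and 59.7 CPM in Trametinib 1 to 4, against 18.5 CPM at the lowest, 27.4 at the median and 40.0 at the highest under Vehicle. On the log2 scale the change was 0.86 ± 0.20 with all tumours and 0.88 ± 0.21 in the reduced set (DESeq2 adjusted p 0.0135 and 0.0104). UBN2, a subunit of a histone chaperone complex, had 88.1, 90.7, 86.0 and 84.6 CPM in Trametinib 1 to 4 and 55.3 CPM at the lowest, 62.4 at the median and 80.5 at the highest under Vehicle. In both genes the groups did not overlap, and in UBN2 the trametinib tumours differed little. UBN2 had log2 fold changes of 0.45 ± 0.14 and 0.53 ± 0.12 (DESeq2 adjusted p 0.0135 and 0.00332). The zinc finger gene ZNF546 had 2.50 ± 0.47 and 1.27 ± 0.32 (DESeq2 adjusted p 0.00066 and 0.0104), with Trametinib 4 at 20.8 CPM and the other 3 at 2.36 to 3.99. SHLD1, a shieldin subunit in DNA repair, had 1.14 ± 0.30 and 0.81 ± 0.24 (DESeq2 adjusted p 0.0225 and 0.0353). CDC42, a GTPase of cell polarity, had 1.57 ± 0.36 and 1.25 ± 0.33 (DESeq2 adjusted p 0.00927 and 0.0197), and it overlaps AL031281.2 on the same strand. After GC correction GPR155, UBN2 and CDC42 no longer held (DESeq2 adjusted p in the reduced set 0.135, 0.269 and 0.0594). Nor did ZNF546 (0.0675 by DESeq2). With the replicate block DESeq2 adjusted p of the 5 genes other than SFTPD was 0.77 to 0.924 with all tumours and 0.274 to 0.608 in the reduced set. Calls were kept in 9 (SHLD1) to 16 (ZNF546) of the 18 leave-one-out fits. ZNF546 lost its call with Trametinib 1 or 2 left out of the reduced set (DESeq2 adjusted p 0.135 to 0.186). CDC42 lost its call with Trametinib 4 left out of all tumours, and with Trametinib 1 or 2 or Vehicle 5 or 6 left out of the reduced set (DESeq2 adjusted p 0.0621 to 0.243). SHLD1 lost its call with Trametinib 4 or Vehicle 3 or 7 left out of all tumours, and with Trametinib 1 or 2 or Vehicle 2, 3, 6 or 7 left out of the reduced set (DESeq2 adjusted p 0.0557 to 0.303). GPR155 lost its call with Trametinib 4 or Vehicle 7 left out of all tumours, and with Trametinib 1 or 2 left out of the reduced set (DESeq2 adjusted p 0.0521 to 0.211). UBN2 lost its call with Trametinib 4 or Vehicle 5 or 7 left out of all tumours, and with Trametinib 1 or 2 left out of the reduced set (DESeq2 adjusted p 0.0516 to 0.158).

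No gene of the cell cycle lists held. Of 19 G1 control genes (median 0.09 with all tumours and 0.09 in the reduced set), 29 DNA replication genes (median −0.22 with all tumours and −0.07 in the reduced set) and 26 mitosis genes (median 0.19 with all tumours and 0.31 in the reduced set), none was called in both sets. CDKN2C, a CDK4 and CDK6 inhibitor, had 0.73 ± 0.23 and 0.37 ± 0.15 (DESeq2 adjusted p 0.0722 and 0.12). The replication helicase genes MCM5 (−0.65 ± 0.32 and −0.51 ± 0.25) and MCM7 (−0.47 ± 0.24 and −0.31 ± 0.20) and the mitotic kinase gene AURKA (0.24 ± 0.19 and 0.33 ± 0.19) did not pass either (DESeq2 adjusted p with all tumours 0.201, 0.207 and 0.387, in that order). Of the 26 mitosis genes 21 had positive log2 fold changes with all tumours and 24 in the reduced set, and their median GC content was 43.8%. None of 25 ribosome biogenesis genes held (median −0.17 with all tumours and 0.01 in the reduced set).

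None of 10 tested genes of BH3-only and effector apoptosis proteins and none of 7 pro-survival genes held (medians 0.41 and −0.004, and −0.03 and 0.15, with all tumours and in the reduced set). BCL2L11 encodes BIM, a BH3-only protein that ERK phosphorylation marks for degradation. It averaged 50.7 ± 14.8 CPM under trametinib and 63.1 ± 15.5 CPM under Vehicle (SD, n = 4 and 6), a log2 fold change of −0.32 ± 0.21 and −0.32 ± 0.16 (DESeq2 adjusted p 0.356 and 0.187). MCL1, a short-lived survival protein, had −0.46 ± 0.17 and −0.33 ± 0.16 (DESeq2 adjusted p 0.0595 and 0.142).

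In metabolism 1 gene of the lists held, ALDOA, the glycolytic aldolase, among 23 glycolysis and hypoxia genes (median −0.42 with all tumours and −0.46 in the reduced set). ALDOA had 7.61, 5.50, 12.1 and 2.24 CPM in Trametinib 1 to 4, against 6.95 CPM at the lowest, 15.4 at the median and 23.5 at the highest under Vehicle, with overlap through Vehicle 1. Its log2 fold change was −1.17 ± 0.33 and −1.07 ± 0.24 (DESeq2 adjusted p 0.0316 and 0.00345, blocked 0.924 and 0.177). It overlaps AC093512.2 on the same strand and reads may be split between them. Its counts are therefore uncertain and need not stand for all ALDOA transcripts. ALDOA lost its call with Trametinib 4 or Vehicle 2, 3, 5, 6 or 7 left out of all tumours, and with Trametinib 1 or 2 left out of the reduced set (DESeq2 adjusted p 0.0555 to 0.251). VEGFA, the angiogenic growth factor, passed in the reduced set only (−0.79 ± 0.34 and −0.63 ± 0.20, DESeq2 adjusted p 0.136 and 0.0433, blocked 0.924 and 0.546), and GPI, the glycolytic isomerase, did not pass (−0.84 ± 0.36 and −0.83 ± 0.33). None of 23 cholesterol synthesis genes (median −0.39 with all tumours and −0.19 in the reduced set) and none of 11 fatty acid synthesis genes (median −0.54 with all tumours and −0.47 in the reduced set) held. FASN, the fatty acid synthase, had 65.2, 80.4, 206 and 10.9 CPM in Trametinib 1 to 4 and 61.2 CPM at the lowest, 319.9 at the median and 633 at the highest under Vehicle, with Vehicle 1 lowest. FASN (−1.90 ± 0.70 and −1.76 ± 0.62) and its regulator SREBF1 (−1.12 ± 0.43 and −1.07 ± 0.39) did not pass (DESeq2 adjusted p 0.0668 for FASN and 0.103 for SREBF1). MVD of the mevalonate pathway passed with all tumours only (−0.85 ± 0.25 and −0.70 ± 0.25, DESeq2 adjusted p 0.0418 and 0.0726, blocked 0.924 and 0.617). SLC7A5, an amino acid transporter, did not pass (−1.09 ± 0.50 and −0.95 ± 0.40).

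All 37 ribosomal protein genes had log2 fold changes above 0 (median 1.08 with all tumours and 0.50 in the reduced set), and none held. Their share of counts in Trametinib 4 was 14.8% against 2.61% to 4.38% in Trametinib 1 to 3, 4.52% in Vehicle 1 and 2.20% to 2.73% in the other Vehicle tumours. The 13 MHC class I genes had a median of 0.31 with all tumours and 0.28 in the reduced set and the 23 interferon-stimulated genes 0.17 with all tumours and 0.26 in the reduced set, and none held. B2M, the MHC class I light chain, had 824, 534, 399 and 2139 CPM in Trametinib 1 to 4 and 321 CPM at the lowest, 339 at the median and 754 at the highest under Vehicle, with Trametinib 4 and Vehicle 1 the highest of their groups (1.24 ± 0.41 and 0.76 ± 0.33, DESeq2 adjusted p 0.0598 and 0.127).

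Of the remaining lists none had a gene that held. With all tumours and in the reduced set, the median log2 fold change was 0.56 and 0.24 over 20 nuclear genes of the respiratory chain and −0.39 and −0.25 over 13 mitochondrially encoded genes. It was −0.09 and 0.05 over 17 genes of the ATF4 amino acid stress response, −0.14 and −0.16 over 21 autophagy and lysosome genes and −0.19 and −0.12 over 16 NRF2 targets of the oxidative stress response. It was −0.17 and 0.04 over 15 heat shock genes, 0.10 and 0.15 over 18 proteasome genes, −0.31 and −0.14 over 12 YAP and TEAD targets, −0.27 and −0.15 over 11 Kruppel-like factor genes and −0.17 and 0.11 over 5 nuclear long RNAs.

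Markers of lung epithelium were present in all 10 tumours. Their summed level was 4322 to 5569 CPM under trametinib and 5502 to 6642 CPM under Vehicle, with KRT18 (−0.51 ± 0.20 and −0.58 ± 0.18, DESeq2 adjusted p 0.13 and 0.0368, blocked 0.924 and 0.611) passing in the reduced set only and CLDN4 (−0.67 ± 0.23 and −0.65 ± 0.22) not passing. None of the 11 epithelial markers held (median −0.27 with all tumours and −0.21 in the reduced set). Of these, NKX2-1 and NAPSA were low and add little to the sum. NKX2-1 had 1.76 to 13.7 CPM under trametinib and 0.354 to 6.12 CPM under Vehicle. NAPSA had 0.151 to 4.15 CPM and 0.366 to 2.12 CPM. Among mesenchymal genes COL1A1 passed in the reduced set only (−1.28 ± 0.48 and −1.35 ± 0.36, DESeq2 adjusted p 0.0995 and 0.0102, blocked 0.924 and 0.601), and 0 of 6 held. Of 13 myeloid, 10 endothelial, 10 fibroblast, 11 blood and muscle and 8 lymphoid markers, 4, 7, 3, 1 and 1 had enough counts to be tested, and none held. In bulk tumours fewer cells of a type and less RNA per cell cannot be told apart.

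In CPM with TMM library sizes, Trametinib 4 had the highest summed level of blood and muscle, lymphoid, myeloid and endothelial markers among the 10 tumours, but not every marker was high there. Its TMM factor was 0.837, which raises its CPM. As a share of all counts, the tested endothelial markers held 0.0222% in Trametinib 4 and 0.0254% in Vehicle 1. The tested myeloid markers held 0.0017% in Trametinib 4 and up to 0.00272% under Vehicle. The tested marker of blood and muscle and that of lymphoid cells stayed highest in Trametinib 4. Summed CPM of the blood and muscle markers was 58.4 in Trametinib 4, 1.06 to 1.86 in Trametinib 1 to 3 and 0.963 to 2.56 under Vehicle. Lymphoid markers summed to 24.0 CPM in Trametinib 4, 3.66 to 3.90 in Trametinib 1 to 3 and 2.56 to 8.48 under Vehicle, with MS4A1 and NKG7 at 0 in all 10 tumours. In Trametinib 4 CD4 alone had 19.0 CPM, and CD3D, CD8A and GNLY were at 0. Myeloid markers summed to 38.7 CPM in Trametinib 4, 15.7 to 23.6 in Trametinib 1 to 3 and 12.0 to 27.3 under Vehicle, and the macrophage marker C1QA was at 0 in all 10. Endothelial markers summed to 299.2 CPM in Trametinib 4, 99.5 to 190.1 in Trametinib 1 to 3 and 106 to 259 under Vehicle, with KDR and ESAM at 0 in Trametinib 4. Fibroblast markers summed to 113 CPM in Trametinib 4, 61.6 to 147 in Trametinib 1 to 3 and 22.9 to 309 under Vehicle. The haemoglobin genes HBA2 and HBB were at 0 in all 10 tumours. The part of these counts in the results with all tumours was not tested beyond the reduced set given beside each.

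**Figure D5:**
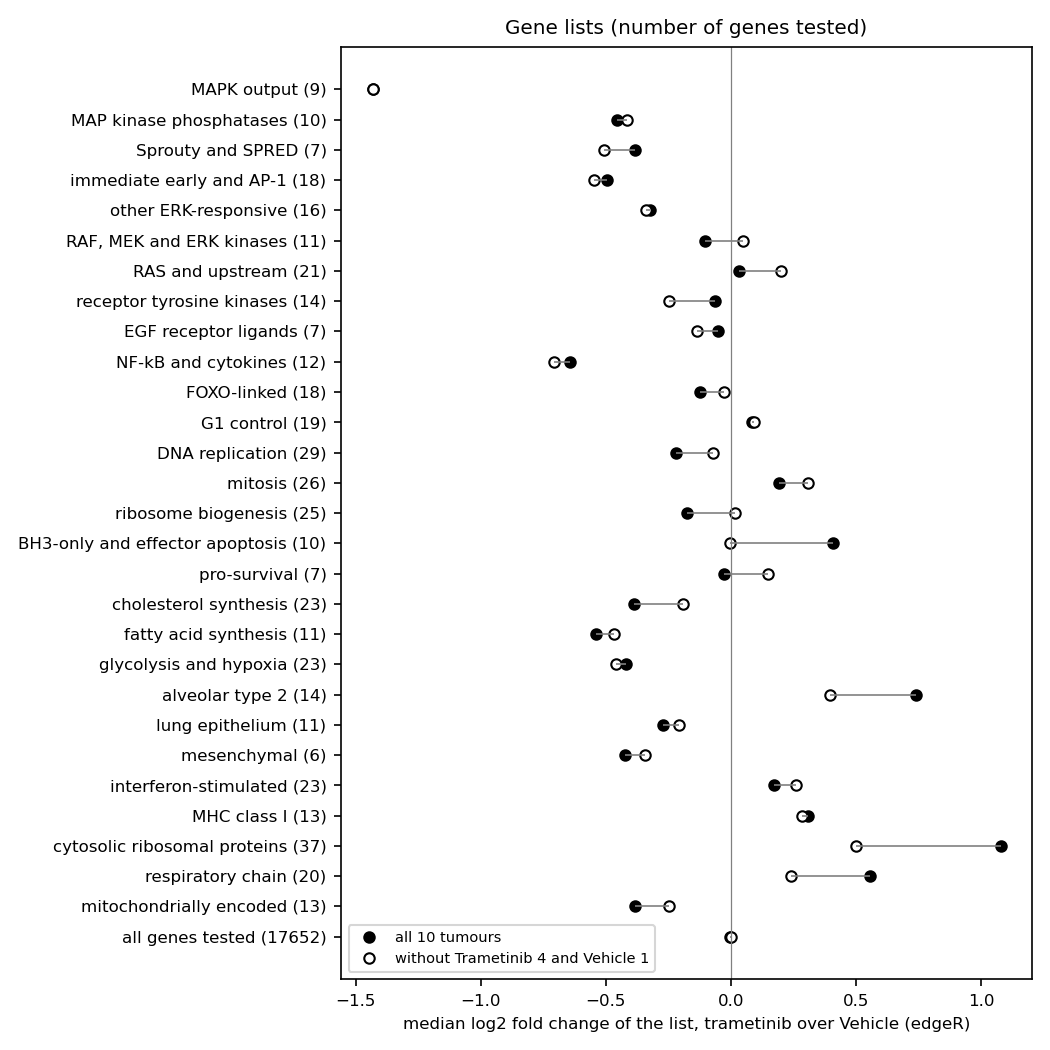
Median log2 fold change, trametinib over Vehicle, of each gene list with all tumours (filled) and without Trametinib 4 and Vehicle 1 (open). The ERK output list lies at −1.43 in both sets, and ribosomal proteins lie at 1.08 and 0.50.

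In 231 genes Trametinib 4 was at least 10-fold above each of the other 9 tumours. No matching count is given here for the other tumours, so the 231 is not set against a rate. ZAN, a sperm membrane protein gene, had 0.603, 0.620, 0.163 and 246 CPM in Trametinib 1 to 4 and at most 0.864 CPM under Vehicle. CACNA1A, a calcium channel subunit gene, had 2.03, 2.48, 1.79 and 276 CPM, and FAM129C had 0.226, 0.620, 0.326 and 263 CPM. The 3 genes were named after their values were seen, for being high in Trametinib 4, so a smaller fold change without it follows from that choice. Their log2 fold changes of 7.77 ± 1.40, 5.15 ± 1.02 and 7.43 ± 1.44 with all tumours were 0.81 ± 0.84, 0.37 ± 0.45 and 0.29 ± 0.99 in the reduced set (edgeR adjusted p 0.571, 0.639 and 0.879). Of the 257 genes DESeq2 called higher with all tumours, 233 were not called in the reduced set, against 22 of the 112 called lower.

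Cobimetinib, the other MEK inhibitor of the series, was set beside trametinib directly, at a dose that differed (3 against 0.3 mg/kg). By edgeR 0 of 17652 genes differed (0% called), with 2955 at an unadjusted p under 0.05. DESeq2 called 168 genes with all tumours (1.02% called), 120 higher and 48 lower under trametinib, and 52 without Trametinib 4 (0.289% called). In both, 14 genes were higher and 15 lower under trametinib, and 3 of these 29 also held against Vehicle (SPRY4, HES4 and AC141557.1, singled out after their values were seen). SPRY4 averaged 0.618 ± 0.534 CPM under trametinib and 2.94 ± 0.688 CPM under cobimetinib (SD, n = 4 each), a log2 difference of −2.14 ± 0.63 (DESeq2 adjusted p 0.0198 and 0.0472 with and without Trametinib 4). MVD also differed in both fits (−1.30 ± 0.27, DESeq2 adjusted p 0.00378 and 0.0264). Rank correlations of deviations with GC content were 0.388, 0.4998, −0.231 and 0.452 in Cobimetinib 1 to 4. Those of Trametinib 1 to 4 were −0.484, −0.413, 0.054 and −0.102. Cobimetinib 1, 2 and 4 thus lay above every trametinib tumour, and Cobimetinib 3 lay among them. No GC-corrected or blocked DESeq2 values are given for this contrast. The part of GC content in the 29 genes, SPRY4 and MVD among them, was not tested. DUSP6 averaged 2.55 ± 1.79 CPM under trametinib and 5.81 ± 1.33 CPM under cobimetinib, a log2 difference of −1.13 ± 0.51 (DESeq2 adjusted p 0.137 and 0.403). For DUSP5 the values were 8.43 ± 0.898 CPM and 17.5 ± 4.93 CPM (−1.05 ± 0.30, DESeq2 adjusted p 0.0658 and 0.12). DUSP6 and DUSP5 did not pass, which does not show that the compounds act alike. PHLDA1 averaged 3.61 ± 1.77 CPM under trametinib and 2.71 ± 1.15 CPM under cobimetinib (0.39 ± 0.43), and MUC5AC 264 ± 257 CPM and 987 ± 491 CPM (−1.90 ± 0.77). As mean log2 CPM over the 9 ERK output genes, trametinib had 3.23 ± 0.77, cobimetinib 4.18 ± 0.21 and Vehicle 4.81 ± 0.37 (SD, n = 4, 4 and 6), and without Trametinib 4 trametinib had 3.61 ± 0.12 (SD, n = 3). Trametinib and cobimetinib share their Vehicle tumours, and their lists of calls against Vehicle were not compared.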

How the data were processed

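Strand-specific total RNA-seq libraries were made from tumours with RNeasy-extracted RNA, per the labels' protocols. The authors deposited raw read counts per gene. Per the submitters' processing notes, featureCounts 1.5.0-p3, HISAT2 2.0.5 and fastp were named, as were edgeR 3.22.5, DESeq2 1.20.0 and the build hg38. The strand setting of counting is not given in the sources used here.

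Genes were kept by filterByExpr of edgeR 4.0.16 (17652 of 58735 genes, 99.7% of counts), and 1 quasi-likelihood model with TMM normalization was fitted to all 22 tumours in R 4.3.3, with Benjamini-Hochberg adjustment over all genes and a threshold of 0.05. CPM use TMM library sizes. The common dispersion was 0.136 with all tumours and 0.0626 without Trametinib 4 and Vehicle 1. Because edgeR called 0 genes with all tumours, DESeq2 1.42.0 in both sets of tumours was used to say what holds, a choice made after seeing the data. Total counts limit the precision of low genes. In Trametinib 4 the commonest nonzero count was 12, against 1 in the other trametinib and Vehicle tumours. Its zeros and low values are thus less certain than its total of 7761987 alone would give. The cause was not tested.

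Named genes were the largest changes with no overlap between groups (up to 8 each way, mean log2 CPM of at least 1), up to 4 each way by edgeR in the reduced set, fixed ERK pathway genes and up to 4 of each list. By edgeR the first of these named no gene, so it was applied to DESeq2 calls. Members and lists were chosen with earlier results of these data known. Same-numbered tumours deviated together (correlations 0.136, 0.190 and 0.202 for replicates 1, 2 and 3), so blocked values stand beside results against Vehicle whose call they change. The labels do not say what a number shares. Numbers 5, 6 and 7 occurred under Vehicle alone, so those tumours do not enter the blocked differences. Alternatives were RLE factors, library size only, other filters, limma 3.58.1 voom with library weights, 1 surrogate variable (sva 3.50.0), a loess correction for the GC content of GENCODE transcripts, leaving out each tumour, and the fits named in the closing section. The procedures were run on simulated counts in which each gene had 1 spread shared by all tumours. The simulation held no library with a composition that stands apart and no trend with GC content. It therefore does not show how edgeR or DESeq2 behave with those features.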

Additional observations from a re-analysis of the deposited data

Results flagged for a closer look

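Among 156 groups examined (78 genes in 2 groups each), 36 held a tumour far from the rest of its group by Dixon's ratio, and chance flags about 1 in 20 groups. ZAN, CACNA1A, FAM129C, the mucin genes and BPIFA1 were among the 78 because of their values in single tumours or groups, so the count of 36 is not to be read against that rate. Vehicle 1 was that tumour in 23, Trametinib 4 in 12 and Trametinib 3 in 1. In Trametinib 4, ZAN had 246 CPM, FAM129C 263 CPM, CACNA1A 276 CPM and SHLD1 13.1 CPM, all above the other trametinib tumours. Trametinib 4 had 0 CPM of CXCL2, DUSP6, EGR1, LIF, MELTF-AS1 and ZFP36, 4.64 CPM of EPHA2 and 13.0 CPM of TRIB1, all below the others. Trametinib 3 was lowest for SFTPD at 7.73 CPM.

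Vehicle 1 was the highest Vehicle tumour for B2M at 754 CPM and for BPIFA1 at 0.457 CPM. It was the lowest for ERK-responsive genes, with 2.83 CPM of EGR1, 25.9 CPM of EPHA2, 22.7 CPM of SPRED2 and 6.03 CPM of ZFP36. Among mucins and epithelial genes it had 153 CPM of MUC5AC, 134 CPM of MUC5B, 261 CPM of MUC1 and 311 CPM of KRT18. For signalling genes it had 68.3 CPM of DDR1, 71.7 CPM of ERBB2, 208 CPM of IRS2, 9.60 CPM of LZTR1 and 111 CPM of MAP2K2. Metabolic genes stood at 6.95 CPM of ALDOA, 87.7 CPM of GPI and 58.0 CPM of SREBF1. Vehicle 1 also had 28.5 CPM of AC020916.1, 34.5 CPM of BCL2L11, 20.1 CPM of COL1A1, 85.2 CPM of MCM5 and 3.38 CPM of MELTF-AS1, the lowest Vehicle values. Why these tumours stand apart was not tested.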

How the results depend on the processing

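With all tumours edgeR called 0 genes between trametinib and Vehicle, and the same with RLE factors, the GC correction, 1 surrogate variable, only the 2 groups, the replicate block, the block and the GC correction together, and when only changes past 0.5 on the log2 scale were tested for. It called 1 by library size only, 1 with no filter, 301 at a mean CPM of at least 1 (284 higher, 17 lower), 8 without Trametinib 4 and Vehicle 1, and 2686 without the 4 libraries of the series that stand apart (Trametinib 4, Vehicle 1, RMC-7977 3 and RMC-4550 1). DESeq2 called 369 and voom with library weights 7874. Leaving out 1 tumour gave 0 to 1428 genes, with 548, 625, 1428 and 1 without Trametinib 1, 2, 3 and 4, and 740 without Vehicle 1. Without Trametinib 4 and Vehicle 1 the 8 genes became 801 by DESeq2, 5 with the GC correction (1 higher, 4 lower), 78 with no filter, 1918 with only the 2 groups, 121 with the 2 groups and the GC correction together, and 0 with the replicate block (1286 at an unadjusted p under 0.05). They became 2686 without the 4 libraries apart and 0 to 37 with 1 more tumour left out (0 without Trametinib 2, 37 without Vehicle 2). The 114 genes that held became 0 by edgeR in both sets, 91 with the GC correction (22 higher, 69 lower), 1 with the replicate block, and 12 to 1101 with 1 tumour left out. Against cobimetinib the 0 genes became 168 by DESeq2, 52 by DESeq2 without Trametinib 4, 537 without the 4 libraries apart, and 0 to 313 with 1 tumour left out (313 without Trametinib 3). The cause of these changes was not tested.

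For the 78 genes examined singly, 1535 values kept their direction and side of the threshold, 314 passed where edgeR with all tumours had not, and 17 in 4 genes changed sign, all 4 passing in neither set. The log2 fold change of BCL2L11 was 0.02 with 1 surrogate variable. That of MAP2K1 was 0.14 with it, 0.026 with the GC correction, 0.0068 with the block and GC correction, 0.048 without Trametinib 4 and Vehicle 1, 0.042 without the 4 libraries apart, and −0.14 to 0.042 with 1 tumour left out. MAP2K2 had 0.13, 0.15 and 0.064 with 1 surrogate variable, the GC correction, and the block and GC correction. RIT1 had −0.091 with the GC correction, −0.012 with no filter, −0.026 with the replicate block, −0.12 with the block and GC correction, and −0.060 to 0.15 with 1 tumour left out.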
